A study of Mus musculus with 20 samples.

Results

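The nuclear-encoded subunits of the respiratory chain and of ATP synthase were followed across 6 cell types on 20 mouse arrays. Members were chosen by gene symbol: Ndufa, Ndufb, Ndufc, Ndufs or Ndufv followed by a digit, Sdha to Sdhd, and any symbol starting with Uqcr, Cox4 to Cox8 or Atp5. The rule found 81 of 18193 genes, with 35 in complex I, 4 in complex II, 8 in complex III, 17 in complex IV and 17 in ATP synthase. Complexes were assigned by symbol, so that Ndufa4 and its paralog Ndufa4l2 are in all counts and medians of complex I. Each gene is given by 1 probe set, the one with the highest mean over the 20 arrays, and no member was dropped for a low value. A further 7 genes that the rule names, among them Ndufa11 and Ndufs6, lay only on probe sets shared with other genes and are not analysed here.

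The respiratory chain passes electrons from NADH, through complex I, and from succinate, through complex II, to ubiquinone, then through complex III and cytochrome c to complex IV, where oxygen is reduced. Complexes I, III and IV pump protons across the inner mitochondrial membrane, and ATP synthase uses the return flow to make ATP. Most subunits are encoded in the nucleus and made in all tissues, while some subunits of complex IV have paralogs that are used in muscle, lung, testis or under low oxygen. The switch between glycolysis and respiration is a known feature of pluripotent cells, which lean on glycolysis.

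Germline stem cells (GSC, 3 arrays) were the self-renewing cells of cultured testis, taken from the strain B6;CBA-Tg[Pou5f1-EGFP]2Mnn/J, known as OG2, whose green fluorescent protein is driven by the Pou5f1 (Oct4) promoter. The pluripotent cells derived from them (gPS, 5 arrays) arose from about 1000 GSC plated per well on feeders, where bright round colonies appeared within 3 to 4 weeks. Embryonic stem cells were of the RW4 line (ESC, 3 arrays). ESC-like cells came from testes of mice at postnatal day 0 to 2 (ESC_like, 3 arrays), a gift of another laboratory with no strain given in their labels. The NSC group (3 arrays) held neural stem cells made in culture from an Olig2-GFP embryonic stem cell line. The MEF group (3 arrays) held fibroblasts of C3H embryos at E12.5. No age is given for the mice behind GSC, and nothing says whether the arrays of a group came from separate cultures, so the p-values rest on a spread between arrays that may be technical. GSC and the gPS colonies were grown in a serum-free medium with glucose, pyruvate, lactate, growth factors and leukemia inhibitory factor. ESC and ESC_like cells, and gPS cells during expansion, were kept in embryonic stem cell conditions. Medium and cell type therefore cannot be told apart in GSC against the pluripotent groups. Strain or line differed between the OG2-derived groups, ESC, NSC and MEF, and was not given for ESC_like. Outside gPS against GSC, strain or line and cell type thus cannot be told apart either. GSC, gPS, ESC and ESC_like cells grew on fibroblast feeders, so that their RNA can hold fibroblast RNA.

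Values are log2 intensities as the authors deposited them, and they ran from 2.04 to 14.71 with a median of 4.98. Markers were high in the groups they name: all 5 pluripotent markers were above 7 in ESC, ESC_like and gPS, and all 6 germ line markers in GSC. So were 4 of 5 neural markers in NSC and 10 of 11 fibroblast markers in MEF. Elsewhere 3 pluripotent markers were above 7 in GSC and 1 in NSC. The same held for 1 germ line marker each in ESC_like, gPS and MEF. It held for 1 neural marker each in ESC_like, gPS, GSC and MEF. Of 6 macrophage markers 2 were above 7 in ESC_like, 2 in MEF, 1 in ESC and 1 in GSC. Of 6 testis somatic markers 1 was above 7 in NSC and 0 in the other groups. The mean of the 11 fibroblast markers ran from 4.94 to 5.11 over the ESC arrays, from 6.93 to 8.05 in gPS, from 6.87 to 7.25 in GSC, from 8.30 to 8.61 in ESC_like and from 10.5 to 10.6 in MEF. Of these markers 1 was above 7 in ESC, 6 in gPS, 6 in GSC, 8 in ESC_like and 4 in NSC. The part of feeder RNA in the results below was not tested. GSC replicate 1 had the largest difference between the 3' and 5' probe sets of Actb, at 1.25 against 0.57 or less in the other arrays. Of the 81 members, 72 were above 7 in every group, as were 4976 of all genes. Fewer cells of a type and less RNA per cell cannot be told apart in these bulk samples.

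The spread of a member, the highest minus the lowest of its 6 group means, had a median of 0.79 on the log2 scale over the 72 members above 7 in every group. The same figure was 1.25 over all genes above that level. A spread of 1 or more was reached by 25 of 81 members, and by 51.6% of all genes. ATP synthase was the most even complex, with 2 of 17 members at a spread of 1 or more, against 14 of 35 in complex I and 4 of 17 in complex IV. In complex III it was 4 of 8. The 4 in complex IV were at 2.09 for Cox7c, 3.36 for Cox7a1, 4.07 for Cox6b2 and 5.50 for Cox7b2. The member with the smallest spread was Ndufa9, an accessory subunit of complex I, at 0.17. Its counterparts were Sdhd at 0.43, Uqcrc1, a core subunit of complex III, at 0.25, Cox6a2 at 0.27 and Atp5d, the delta subunit of ATP synthase, at 0.33. Cox6a2, a muscle isoform, was below 7 in all groups.

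**Figure D1:**
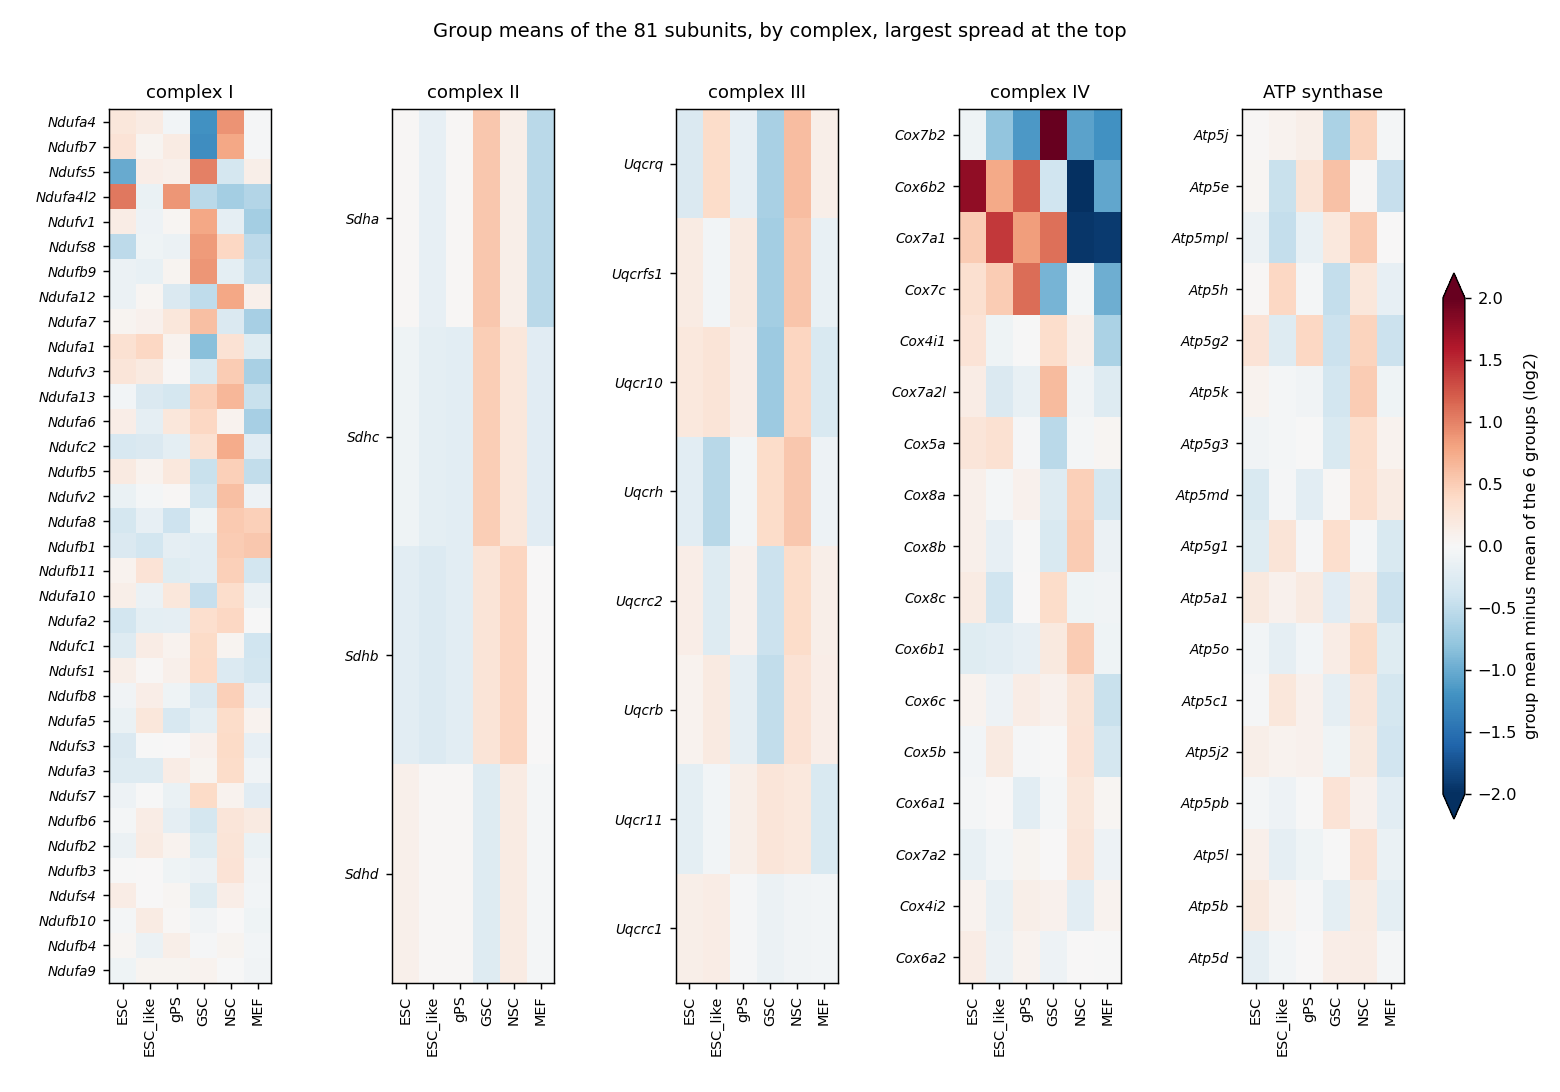
Group means of the 81 subunits (log2), each minus its mean over the 6 groups, in 1 panel per complex with the member of the largest spread at the top; red is higher and blue lower, and the colours end at -2 and 2. Strong colour is held by a few rows, Cox7b2, Cox6b2 and Cox7a1 above all, while most rows are pale.

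NSC had the highest mean of the 6 groups for 45 of 81 members and MEF the lowest for 30. GSC stood at an end for more members than any pluripotent group did, highest for 20 and lowest for 24. The gPS group was highest for 3 and lowest for 3. Among the 72 members above 7 in every group, NSC was highest for 61.1%, and among all genes above that level it was highest for 18.1%. Over the same sets MEF was lowest for 38.9% of members and for 27.6% of genes. GSC was highest for 26.4% of members and 30.9% of genes, and lowest for 31.9% and 23.2%, so a place at an end is common among bright genes in GSC. The gPS group was lowest for 4.17% of members and 9.39% of genes. These shares describe the 6 groups and carry no test.

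For each array, every member's value was taken as its distance from its own mean over the 20 arrays, and the median over a complex was formed. Complex I medians were 0.36, 0.27 and 0.36 in the 3 NSC arrays and -0.08, -0.16 and -0.20 in the MEF arrays. No array of another group reached the NSC values. In complex III the NSC arrays lay at 0.43, 0.35 and 0.47 and the GSC arrays at -0.52, -0.38 and -0.48, at the opposite ends of the scale. The complex II medians, over 4 genes, were 0.36, 0.45 and 0.38 in GSC, 0.24, 0.19 and 0.19 in NSC and 0.08 or less in all other arrays. This place of GSC depends on the probe set of Sdha: with its second-brightest probe set, an alternative chosen after seeing the data, the GSC medians were -0.04, 0.10 and -0.03, within the gPS range, and NSC was highest at 0.28, 0.22 and 0.24. ATP synthase medians were 0.25, 0.21 and 0.28 in NSC and -0.18, -0.22 and -0.19 in MEF, with the pluripotent and GSC arrays between them. The complex IV medians of NSC, from 0.01 to 0.04, lay within the range of the ESC, gPS and GSC arrays. Over all genes above 7 in every group the medians were -0.02 to -0.07 in NSC and -0.12 to -0.16 in MEF, so that the low MEF values of the complexes lie on a lower level of bright genes in general.

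**Figure D2:**
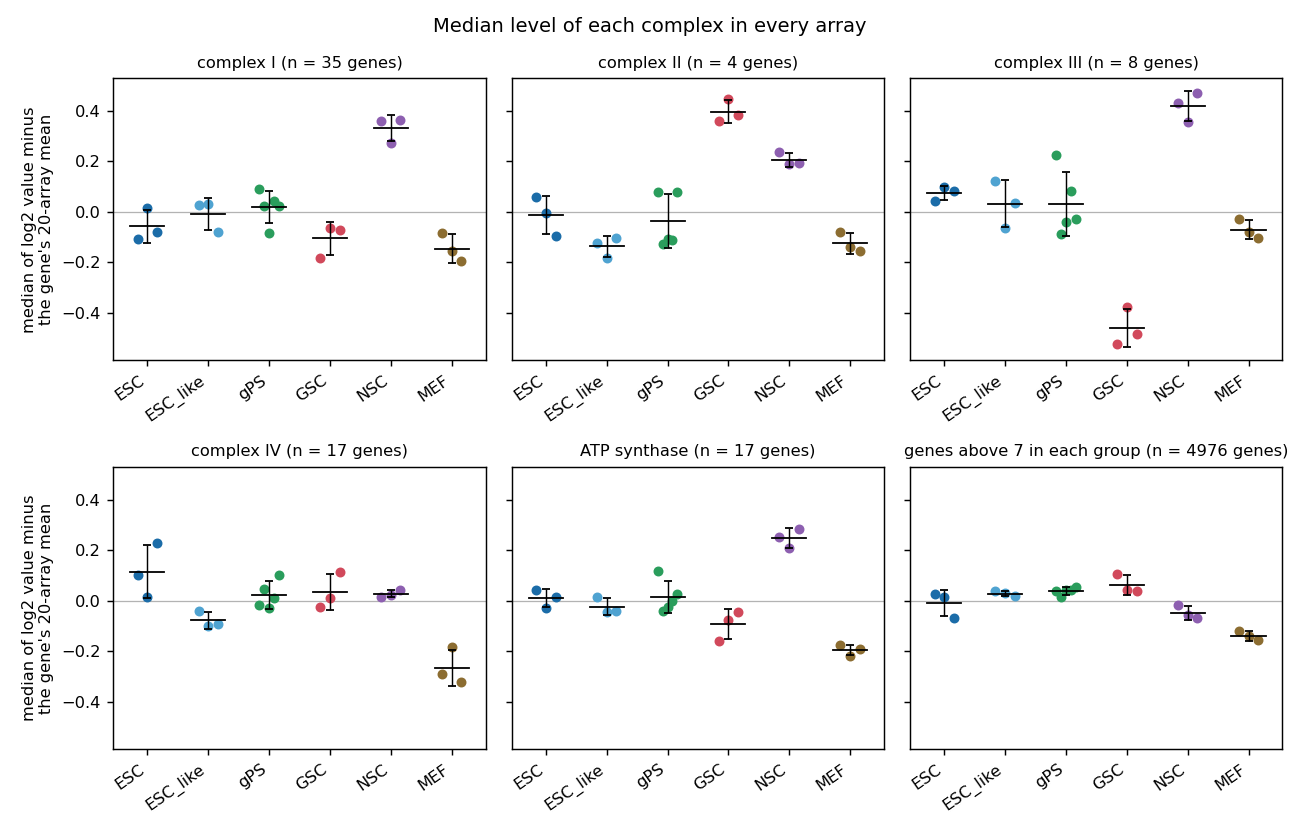
Median of the log2 values of each complex in every array, after subtracting each gene's mean over the 20 arrays; points are arrays, horizontal bars are group means and vertical bars are SD. NSC stands above the other groups in complexes I, III and ATP synthase, GSC is lowest in complex III and, on the Sdha probe set used, highest in complex II, and the panel for genes above 7 in each group shows MEF lowest there too.

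The first comparison asks what differed between gPS cells and the GSC they came from. Tests are limma's, over all 20 arrays, with Benjamini-Hochberg adjustment over all genes; a gene is called at an adjusted p under 0.05 and a difference of at least 2-fold, and "past the test" means an adjusted p under 0.05 at any size. The subunits differed in both directions: 26 of 81 were higher and 25 lower in gPS past the test, with a median difference of 0.03. That is 63.0% of the members, beside 50.9% of all genes and 69.3% of the genes above 7 in every group. Of the 81, 5 were called higher and 1 lower, beside 20.0% of all genes called (9.10% higher, 10.9% lower). The 5 higher were Ndufb7, Ndufa4, Ndufa4l2, Cox6b2 and Cox7c, and the lower one was Cox7b2.

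In complex I, 9 of 35 subunits were higher and 11 lower in gPS past the test. The 3 called there were Ndufb7, Ndufa4 and Ndufa4l2, and the last 2 are counted in complex I by symbol. Ndufb7, an accessory subunit on the intermembrane side, measured 9.59, 9.39 and 9.41 in GSC and 10.86, 11.06, 10.73, 10.85 and 10.87 in gPS. Every gPS array was above every GSC array, and the difference was 1.41 ± 0.09 (SE, 2.66-fold, limma adjusted p = 3.82e-11). A second probe set of Ndufb7 gave 1.64. Ndufb7 was 10.98 ± 0.02 in ESC (SD, n = 3), 10.76, 10.88 and 10.63 in ESC_like, 10.71, 10.67 and 10.66 in MEF and 11.54, 11.43 and 11.47 in NSC. All GSC arrays were below every array of the other groups.

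Ndufa4, named as a complex I subunit and since found in complex IV, followed the same course. It measured 9.41, 9.53 and 9.18 in GSC and 10.59, 10.54, 10.37, 10.54 and 10.61 in gPS. The groups did not overlap, with a difference of 1.16 ± 0.12 (SE, limma adjusted p = 4.67e-08). NSC held the most, at 11.53, 11.75 and 11.20, with 10.89, 10.66 and 10.89 in ESC, 10.94, 10.67 and 10.67 in ESC_like and 10.52, 10.57 and 10.62 in MEF. Ndufa4l2, its paralog and a gene known to be induced by low oxygen, was 6.05, 5.71 and 6.10 in GSC and 6.71, 6.78, 7.83, 7.44 and 8.07 in gPS. All gPS arrays were higher, but they spread over more than 1 log2 unit, and the difference was 1.41 ± 0.24 (SE, limma adjusted p = 4.02e-05). The ESC arrays, at 7.72, 7.55 and 7.37, lay inside the gPS range, while ESC_like arrays at 6.39, 6.24 and 6.43 lay below it. NSC at 5.39, 5.97 and 6.08 and MEF at 5.93, 6.04 and 5.76 overlapped GSC.

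A second set of complex I subunits ran the other way, with GSC on top. Ndufs5, an accessory subunit on the intermembrane side, was 11.08, 11.17 and 10.90 in GSC and 10.29, 9.87, 10.00, 10.37 and 10.19 in gPS. It was lower still in ESC, at 8.93, 9.06 and 9.10. The gPS minus GSC difference was -0.91 ± 0.11 (SE), short of 2-fold and past the test. ESC_like at 10.21, 10.14 and 10.16 and MEF at 10.12, 10.21 and 10.13 lay within the gPS range, and NSC at 9.70, 9.70 and 9.65 below it. Ndufs8, a core subunit that carries iron-sulfur clusters, was 11.97, 11.96 and 12.23 in GSC and 11.43, 10.83, 10.87, 11.07 and 11.28 in gPS. NSC followed GSC at 11.63, 11.58 and 11.66, then ESC_like at 11.08, 11.17 and 11.13, with ESC (10.82, 10.60, 10.62) and MEF (10.68, 10.74, 10.62) lowest and overlapping. The gPS minus GSC difference of Ndufs8 was -0.96 ± 0.12 (SE).

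Ndufv1, the core subunit that binds NADH, was 11.70, 11.65 and 11.87 in GSC and 11.14, 10.98, 10.89, 11.11 and 10.92 in gPS, a difference of -0.73 ± 0.09 (SE). MEF arrays were lowest at 10.34, 10.36 and 10.19, NSC was at 10.79, 10.81 and 10.75, ESC_like at 10.92, 10.92 and 10.77 and ESC at 11.14, 11.11 and 11.10. Ndufb9, an accessory subunit, was 12.04, 12.08 and 12.28 in GSC and 11.27, 11.30, 11.19, 11.37 and 11.39 in gPS, a difference of -0.83 ± 0.09 (SE). It was 11.15, 11.16 and 11.08 in ESC, 11.13, 11.24 and 10.94 in ESC_like, 11.08, 11.01 and 11.09 in NSC and 10.79, 10.82 and 10.70 in MEF. For Ndufs5, Ndufs8 and Ndufb9 all 3 GSC arrays were above every array of the other 5 groups, and the same holds for Ndufv1. Ndufa12, an accessory subunit that sits near the NADH end, had NSC on top instead, at 11.84, 11.69 and 11.76. Its lowest mean was that of GSC, with arrays at 10.35, 10.60 and 10.48. Its gPS arrays were 10.65, 10.56, 10.65, 10.80 and 10.78, with 10.77, 10.95 and 10.87 in ESC, 10.93, 11.25 and 10.87 in ESC_like and 11.12, 11.08 and 11.04 in MEF. Arrays of gPS and GSC overlapped for Ndufa12, and their difference of 0.21 ± 0.10 (SE) did not pass the test.

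**Figure D3:**
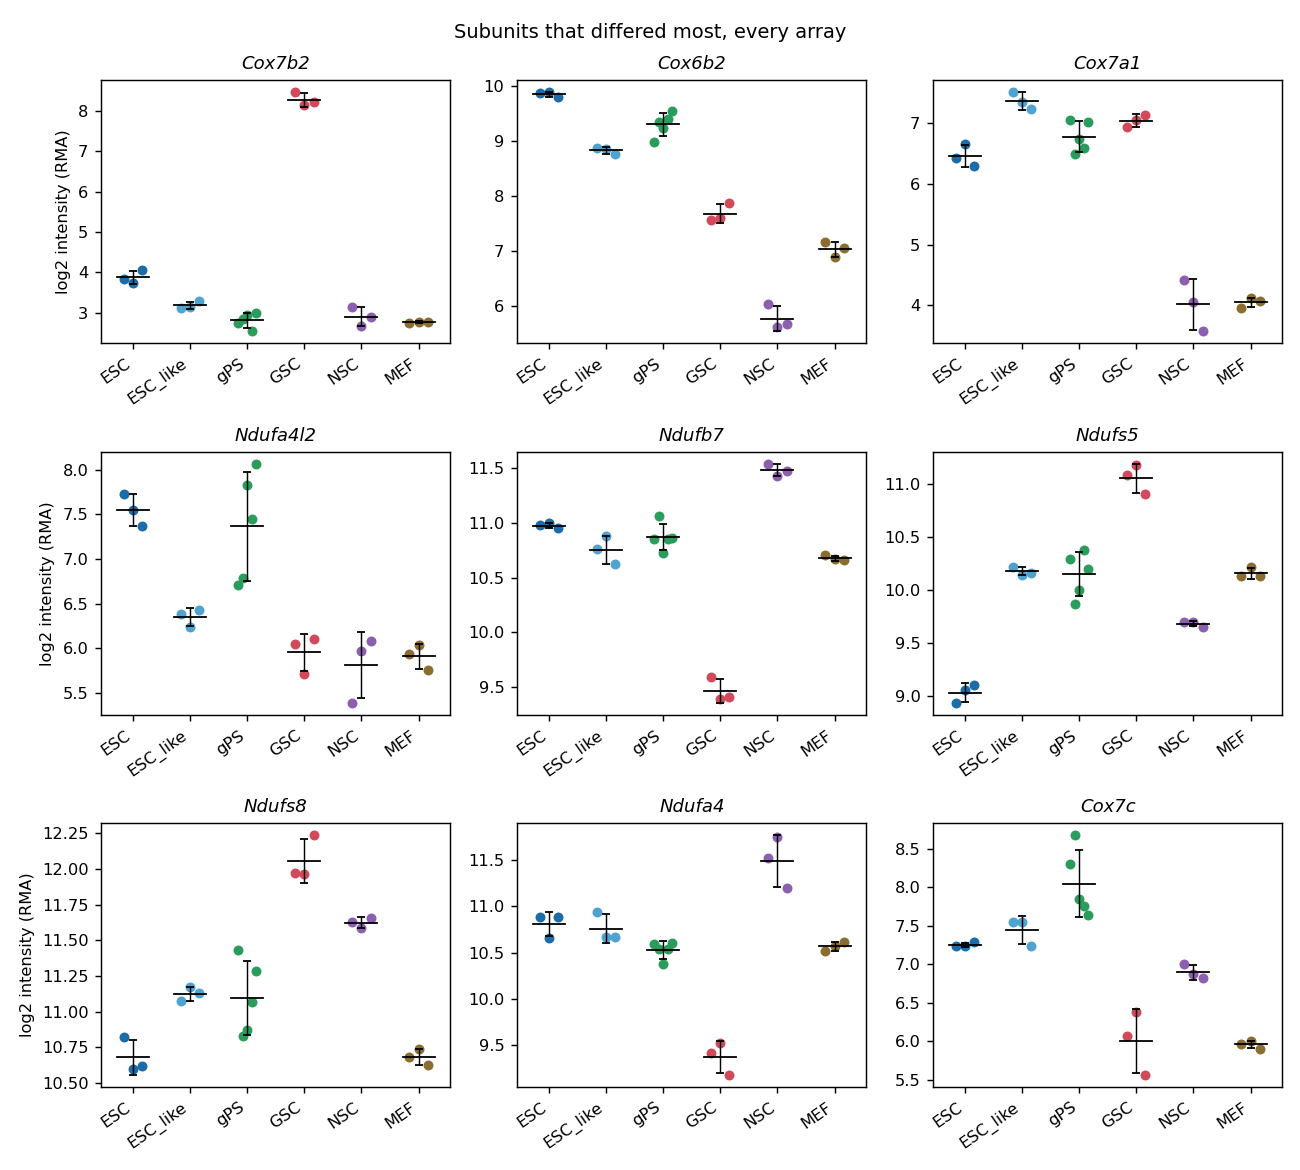
Log2 intensity of 9 subunits in every array; points are arrays, horizontal bars are group means, vertical bars are SD, and each panel has its own scale that does not start at 0. Cox7b2 stands at 8.13 to 8.47 in GSC and at 4.05 or less in all other arrays, and GSC is the lowest group for Ndufb7 and Ndufa4 and the highest for Ndufs5 and Ndufs8.

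In gPS against GSC the median difference was -0.49 in complex II and 0.40 in complex III. In complex II, Sdha, the flavoprotein, was lower in gPS than in GSC at -0.51 ± 0.08 (SE), Sdhb, the iron-sulfur subunit, at -0.47 ± 0.09 and Sdhc, a membrane anchor, at -0.71 ± 0.13, all past the test. A second bright probe set of Sdha, with a mean of 9.76 over the arrays, ran the other way at 0.52, and with it the complex II median was -0.10. The direction for Sdha is therefore not settled. Sdhd, the other anchor, was higher by 0.28 ± 0.10, with arrays of the groups overlapping. The sizes for both anchors also depend on the probe set. A dimmer probe set of Sdhc, with a mean of 8.91 over the arrays, gave -0.22. For Sdhd a dimmer one, with a mean of 7.41, gave -0.05, against the direction of the one used. In complex III, 5 of 8 members were higher in gPS past the test and 1 was lower. The largest were Uqcr10, a small accessory subunit, at 0.87 ± 0.11 and Uqcrfs1, the Rieske iron-sulfur protein, at 0.86 ± 0.09 (SE). Dimmer probe sets of Uqcr10 gave 1.82 and 1.17 for the same difference. Those probe sets put ESC_like above ESC by 3.85 and 2.22, beside 0.05 on the probe set used. Uqcrh, the hinge protein that sits near cytochrome c1, ran against them at -0.42 ± 0.08. No member of either complex reached 2-fold, although limma passed 4 of 4 and 6 of 8 at any size, and the same numbers had an unadjusted p under 0.05.

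In ATP synthase 7 of 17 members were higher and 5 lower in gPS past the test, with none at 2-fold. The largest differences were those of Atp5g2, 1 of the 3 genes for the c subunit of the rotating ring, at 0.85 ± 0.10 (SE), and Atp5j, a stalk subunit, at 0.75 ± 0.11. The 3 c-subunit genes encode the same mature protein after cleavage of different import sequences, and they had different orders of the groups. Atp5g2 was 11.13 ± 0.10 in GSC, 11.98 ± 0.16 in gPS, 11.84 ± 0.09 in ESC, 11.30 ± 0.15 in ESC_like, 12.01 ± 0.10 in NSC and 11.12 ± 0.05 in MEF (SD; gPS n = 5, others n = 3). Atp5g1 was 11.54 ± 0.11 in GSC, 11.19 ± 0.22 in gPS, 10.96 ± 0.04 in ESC, 11.47 ± 0.08 in ESC_like, 11.18 ± 0.06 in NSC and 10.89 ± 0.11 in MEF. Atp5g3 was 12.37 ± 0.08 in GSC, 12.67 ± 0.09 in gPS, 12.61 ± 0.02 in ESC, 12.64 ± 0.04 in ESC_like, 13.02 ± 0.07 in NSC and 12.75 ± 0.02 in MEF. GSC had the highest mean for Atp5g1 and the lowest for Atp5g3. Atp5l, the g subunit, ranged from 11.17 ± 0.05 in ESC_like to 11.64 ± 0.02 in NSC.

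The largest differences of the set in gPS against GSC, above 2 log2 units, were those of Cox7b2 and Cox7c in complex IV. Cox7b2, a testis paralog of the small membrane subunit Cox7b, measured 8.47, 8.13 and 8.22 in GSC. In gPS it measured 2.75, 2.85, 2.94, 2.54 and 3.00. Every gPS array was at the low end of the scale, below the median of all values, and the difference was -5.45 ± 0.12 (SE, limma adjusted p = 1.51e-18). No fold is given, since the gPS values lie near the lowest of the series. ESC arrays stood at 3.85, 3.75 and 4.05, ESC_like at 3.11, 3.15 and 3.28, NSC at 3.16, 2.67 and 2.89 and MEF at 2.74, 2.79 and 2.77. Cox7b itself is not analysed here.

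Cox6b2, a testis paralog of the subunit Cox6b1 on the intermembrane side, was higher in gPS than in GSC. ESC arrays were highest at 9.87, 9.88 and 9.80, followed by gPS at 8.98, 9.35, 9.24, 9.41 and 9.55 and ESC_like at 8.88, 8.86 and 8.76. GSC measured 7.57, 7.61 and 7.87, MEF 7.16, 6.89 and 7.06 and NSC 6.04, 5.62 and 5.67. None of these 6 groups overlapped another. The rise from GSC to gPS was 1.62 ± 0.12 (SE, 3.08-fold, limma adjusted p = 5.34e-10). Its partner Cox6b1 had other ends to its order, with 13.09 ± 0.05 in NSC and 12.78 ± 0.02 in GSC on top, then MEF at 12.49 ± 0.01, gPS at 12.42 ± 0.07, ESC_like at 12.37 ± 0.10 and ESC at 12.35 ± 0.06 (SD).

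Cox7a1, the heart and muscle isoform of subunit VIIa, separated the pluripotent and germ line groups from NSC and MEF. It was 6.43, 6.66 and 6.30 in ESC, 7.52, 7.35 and 7.24 in ESC_like, 7.06, 6.50, 6.74, 6.59 and 7.03 in gPS and 6.94, 7.05 and 7.14 in GSC. NSC measured 4.42, 4.05 and 3.57 and MEF 3.96, 4.11 and 4.06. The 6 groups thus fell into a high set and a low set with no overlap, and within the high set gPS overlapped both ESC and GSC. Cox7a2, the common isoform, stayed between 12.39 ± 0.05 in ESC and 12.78 ± 0.06 in NSC. Cox7a2l, a relative of both that joins complexes III and IV in supercomplexes, was 11.93 ± 0.04 in GSC against 11.15 ± 0.21 in gPS, 11.45 ± 0.06 in ESC, 11.01 ± 0.03 in ESC_like, 11.22 ± 0.09 in NSC and 11.04 ± 0.07 in MEF. Its gPS minus GSC difference was -0.78 ± 0.10 (SE) and past the test.

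The upstream bases of the paralogs with the largest spread, and of 1 common partner, are shown because the genes differ in how many CG dinucleotides, the sites of DNA methylation, lie before their start. They are the 250 bases before the RefSeq transcript start (GRCm38.p6), 5′ to 3′ on the gene's strand, with each CG in capitals. Cox7b2 lies at chr5:71548206-71548455 on the minus strand, Cox6b2 at chr7:4753095-4753344 on the minus strand, Cox7a1 at chr7:30183921-30184170 on the plus strand and Cox6b1 at chr7:30626115-30626364 on the minus strand.
Cox7b2: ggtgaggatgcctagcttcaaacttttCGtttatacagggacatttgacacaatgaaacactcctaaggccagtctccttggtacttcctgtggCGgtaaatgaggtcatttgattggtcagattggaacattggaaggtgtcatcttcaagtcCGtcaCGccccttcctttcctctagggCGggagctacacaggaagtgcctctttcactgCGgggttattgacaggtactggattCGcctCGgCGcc
Cox6b2: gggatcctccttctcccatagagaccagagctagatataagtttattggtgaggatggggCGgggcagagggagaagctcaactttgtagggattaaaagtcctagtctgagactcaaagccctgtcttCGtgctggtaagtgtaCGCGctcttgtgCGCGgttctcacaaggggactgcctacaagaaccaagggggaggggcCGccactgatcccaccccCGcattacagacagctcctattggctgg
Cox7a1: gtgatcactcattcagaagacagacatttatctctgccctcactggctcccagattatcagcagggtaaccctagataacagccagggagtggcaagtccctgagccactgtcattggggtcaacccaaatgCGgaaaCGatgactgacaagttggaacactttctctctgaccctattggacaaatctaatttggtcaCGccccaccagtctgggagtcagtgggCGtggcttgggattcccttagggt
Cox6b1: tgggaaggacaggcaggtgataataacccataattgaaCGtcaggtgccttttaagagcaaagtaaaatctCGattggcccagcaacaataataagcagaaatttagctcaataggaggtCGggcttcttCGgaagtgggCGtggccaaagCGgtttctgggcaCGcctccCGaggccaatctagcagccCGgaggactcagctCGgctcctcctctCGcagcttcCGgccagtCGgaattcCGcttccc
Cox7a1 had 4 CG dinucleotides in these bases, Cox6b2 8, Cox7b2 9 and Cox6b1 14. The median was 14 over the windows of the 66 members with a promoter in the table and 12 over those of 14452 genes tested. Methylation is not analysed here, and the counts are a description of the windows.

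The other complex IV paralogs differed less. Cox4i1, the common isoform of the regulatory subunit IV, was 13.04 ± 0.05 in ESC, 12.68 ± 0.03 in ESC_like, 12.75 ± 0.09 in gPS, 13.12 ± 0.05 in GSC, 12.86 ± 0.02 in NSC and 12.14 ± 0.05 in MEF (SD). Cox4i2, the lung isoform, was at 4.71 ± 0.18 in NSC to 5.03 ± 0.26 in gPS, close to the median of all values. Cox6a1 was between 12.94 ± 0.14 in gPS and 13.38 ± 0.01 in NSC, and Cox6a2 between 6.35 ± 0.01 in ESC_like and 6.62 ± 0.16 in ESC. Cox8a, the common isoform of subunit VIII, was between 10.50 ± 0.05 in MEF and 11.33 ± 0.05 in NSC. Cox8b, a muscle isoform, was between 4.68 ± 0.29 in GSC and 5.49 ± 0.47 in NSC, and Cox8c, a testis isoform, was lowest in ESC_like at 7.24 ± 0.09 and highest in GSC, above 7.80 ± 0.09 in ESC.

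Cox7c, a small subunit with no paralog in the set, was called higher in gPS than in GSC. Its probe set measured 6.06, 6.38 and 5.56 in GSC and 8.31, 8.68, 7.85, 7.76 and 7.64 in gPS, with no overlap and a difference of 2.04 ± 0.19 (SE, limma adjusted p = 1.24e-08). ESC lay between, at 7.24, 7.23 and 7.28, as did ESC_like at 7.55, 7.56 and 7.23 and NSC at 7.01, 6.88 and 6.82, while MEF at 5.97, 6.00 and 5.91 overlapped GSC. The second probe set of Cox7c averaged 5.46 over the arrays and gave 1.63 for the same difference. Both were dim for complex IV: the one used averaged 7.05, beside 12.76 for Cox4i1 and 10.86 for Cox8a. How well either probe set reports the Cox7c transcript was not tested.

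Whether paralogs of a family changed unequally was tested with the difference between a paralog and the common partner of its family within each array. The test was an exact two-sided permutation test over arrays. The design allows no p below 0.0357 for 5 against 3 arrays. Over 10 pairs none passed after Benjamini-Hochberg adjustment in either comparison, while 6 did unadjusted in gPS against GSC and 2 in gPS against ESC. An adjusted p under 0.05 would need most of the 10 pairs at that smallest p, so the lack of a pass says little. Relative to Cox6b1, Cox6b2 stood 1.98 higher in gPS than in GSC (exact p = 0.0357, adjusted p = 0.0595), with all 5 gPS arrays above all 3 GSC arrays. Relative to Cox7a2, Cox7a2l differed by -0.83, relative to Cox8a, Cox8c by -0.69, and relative to Atp5g3, Atp5g1 by -0.64 and Atp5g2 by 0.55, each with the same exact p. Cox4i2 relative to Cox4i1, at 0.40, was the sixth pair at that p, with Cox4i2 close to the median of all values. For Ndufa4l2 relative to Ndufa4 the difference was 0.26 (exact p = 0.500), and both genes were called higher in gPS.

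The next comparison set gPS against ESC, which asks how close the derived cells came to embryonic stem cells. It shares its gPS arrays with the comparison above. Past the test, 6 of 81 members were higher and 4 lower in gPS, beside 13.6% of all genes higher and 11.4% lower. That is 12.3% of the members, beside 36.5% of the genes above 7 in every group. The split depends on the scaling, with 4 higher and 11 lower after centring on all genes and 4 and 8 on bright genes. Without ESC replicate 2 or ESC replicate 3 the number past the test was 6. A difference over 0.5 log2 units in either direction was seen in 4.94% of the members and in 17.6% of all genes. Of the members, 1 was called higher and 1 lower, beside 4.49% of all genes (2.36% higher, 2.13% lower). The higher one was Ndufs5, at 1.11 ± 0.11 (SE, limma adjusted p = 1.6e-07), whose 5 gPS arrays all exceeded the 3 ESC arrays. The lower one was Cox7b2, at -1.06 ± 0.12, where both groups lay below the median of all values and the call was lost, just short of 2-fold, without gPS replicate 4 or, at -0.98, without ESC replicate 3.

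The remaining members past the test had smaller differences. Cox7c was higher in gPS by 0.79 ± 0.19, Ndufs8 by 0.42 ± 0.12, Ndufa3 by 0.41 ± 0.09, Uqcr11 by 0.31 ± 0.11 and Ndufs3, a core subunit, by 0.30 ± 0.10 (SE). Cox6b2 was lower at -0.54 ± 0.12, Cox7a2l at -0.30 ± 0.10 and Cox4i1 at -0.29 ± 0.08. In ATP synthase 0 of 17 members passed limma's test, 2 had an unadjusted p under 0.05, and the fit with a variance trend and robust spread passed 2. The ATP synthase differences ran from -0.21 to 0.23. A member that did not pass is not thereby shown to be equal.

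GSC against ESC shares arrays with both comparisons above. Of 81 members, 29 were higher and 26 lower in GSC past the test, or 67.9% beside 50.3% of all genes and 68.3% of the genes above 7 in every group. Centring on bright genes gave 22 and 32, and on all genes 24 and 32. Of the members, 4 were called higher and 6 lower, beside 23.3% of all genes called (13.1% higher, 10.2% lower). Those called higher were Cox7b2 at 4.39 ± 0.14, Ndufs5 at 2.02 ± 0.12, Ndufs8 at 1.38 ± 0.14 and Ndufb9 at 1.00 ± 0.10 (SE). Those called lower were Cox6b2 at -2.17 ± 0.14, Ndufa4l2 at -1.59 ± 0.27, Ndufb7 at -1.51 ± 0.10, Ndufa4 at -1.44 ± 0.13, Cox7c at -1.25 ± 0.22 and Ndufa1, an accessory subunit encoded on the X chromosome, at -1.15 ± 0.10. In each of the 10 the arrays of the groups did not overlap. A call already asks for a large difference against the spread, so this adds no support. Cox7c missed the 2-fold limit when its brighter, shared-suffix probe set was left out, at -0.52, and at -0.89 in the mean of its probe sets. Ndufb9 missed it under both centrings, at 0.92, in the mean of its probe sets, at 0.59, on its other bright probe set, at 0.95, without GSC replicate 3, at 0.93, and without ESC replicate 3, at 0.98.

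The ESC_like cells, also from testis, offered another comparison with ESC. Past the test 6 of 81 members were higher and 12 lower, or 22.2% beside 28.2% of all genes and 35.5% of the genes above 7 in every group, with 4 and 19 after centring on bright genes and 6 and 19 on all genes. Of the members, 1 was called higher and 2 lower beside 7.21% of all genes (5.11% higher, 2.10% lower). Ndufs5 was higher by 1.14 ± 0.12 and Cox7a1 by 0.91 ± 0.18 (SE). Ndufa4l2 was lower at -1.19 and Cox6b2 at -1.02, the latter just short of 2-fold without ESC replicate 2 and at -0.98 without ESC_like replicate 3. Ndufs5 was called above ESC in both testis-derived pluripotent groups, against the same 3 ESC arrays and with ESC the lowest of the 6 groups, at 10.14 ± 0.21 in gPS and 10.17 ± 0.04 in ESC_like against 9.03 ± 0.09 in ESC (SD). The fibroblast markers were higher than in ESC in both groups, and Ndufs5 measured 10.15 ± 0.05 in MEF; the part of feeder RNA in this difference was not tested. In gPS against ESC_like, 13 members were higher and 11 lower past the test, or 29.6% beside 29.3% of all genes and 34.7% of the genes above 7 in every group, with 15 and 8 after centring on bright genes. Of the members, 1 was called, beside 4.85% of all genes (1.11% higher, 3.74% lower). It was Ndufa4l2, at 1.02 ± 0.24 (SE), and the call was lost without gPS replicate 3, 4 or 5 or ESC_like replicate 2, at 0.84 to 1.00.

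Ndufs5 was also 1 of 11 members whose upstream 250 bases held a match to the palindrome of NRF1, a regulator of respiratory genes. Any base was allowed at 1 of its positions, on either strand, so a match need not itself be a palindrome. These 11 are 16.7% of the 66 members in the promoter table, beside 7.00% of 14452 genes and 3.74% of all windows in it. The others were Atp5c1, Atp5g2, Atp5h, Atp5k, Cox6a1, Ndufa5, Ndufa8, Ndufb4, Sdha and Sdhd. The core CCGGAAG of ETS factors, which include GABP, was found in 12 members, or 18.2%, beside 11.8% of genes, and the core AAGATGGC of YY1 in 1 member, or 1.52%, beside 2.05% of genes. The Ndufs5 window (RefSeq, GRCm38.p6, chr4:123718187-123718436, minus strand) is shown with the NRF1 match in capitals. That match begins 98 bases before the start and, with its free base, is not a palindrome.
Ndufs5: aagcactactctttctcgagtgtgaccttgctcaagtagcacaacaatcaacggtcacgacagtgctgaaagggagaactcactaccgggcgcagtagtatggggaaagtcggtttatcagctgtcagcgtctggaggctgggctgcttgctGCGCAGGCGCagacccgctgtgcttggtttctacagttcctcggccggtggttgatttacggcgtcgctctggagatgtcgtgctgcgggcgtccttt
A match describes the letters of the window and does not show binding. The members with an NRF1 match had different orders of the groups: Ndufs5 was highest in GSC, Atp5h in ESC_like and Atp5g2 in NSC.

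The last comparisons concern the somatic references. In NSC against MEF 53 of 81 members were higher in NSC and 2 lower past the test, or 67.9%, beside 39.1% of all genes and 51.4% of the genes above 7 in every group. The median difference of the members was 0.45, and that of all genes above 7 in every group 0.10. Centring the arrays on those bright genes left 41 higher and 2 lower. All 17 members of ATP synthase were above 0 and 13 passed the test. So did 24 of 35 in complex I, 3 of 4 in complex II, 5 of 8 in complex III and 8 of 17 in complex IV, all higher in NSC. In complex III, Uqcr10 was at 0.74 on the probe set used. Its dimmer probe sets, with means of 6.17 and 6.83 over the arrays, gave -3.96 and -2.29, so its direction here is not settled. Ndufs5 at -0.47 ± 0.12 and Cox6b2 at -1.26 ± 0.14 (SE) were the 2 members that were lower.

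Most of these differences were below 2-fold, and 2 members were called higher and 1 lower, beside 17.0% of all genes (8.13% higher, 8.84% lower). Ndufv3, an accessory subunit of the NADH-binding part, was 11.27 ± 0.17 in NSC and 10.11 ± 0.10 in MEF (SD), a difference of 1.16 ± 0.19 (SE, limma adjusted p = 3.13e-05). Ndufa13, also known as a cell death regulator, was 12.55 ± 0.10 against 11.45 ± 0.06, a difference of 1.11 ± 0.15 (SE, limma adjusted p = 2.12e-06). Ndufb5, Ndufc2, Ndufs8, Cox7c, Ndufa4 and Atp5g2 followed at 0.88 to 0.97. For Ndufs8, 4 other probe sets gave 0.70 to 0.91 and the dimmest gave -0.06.

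**Figure D4:**
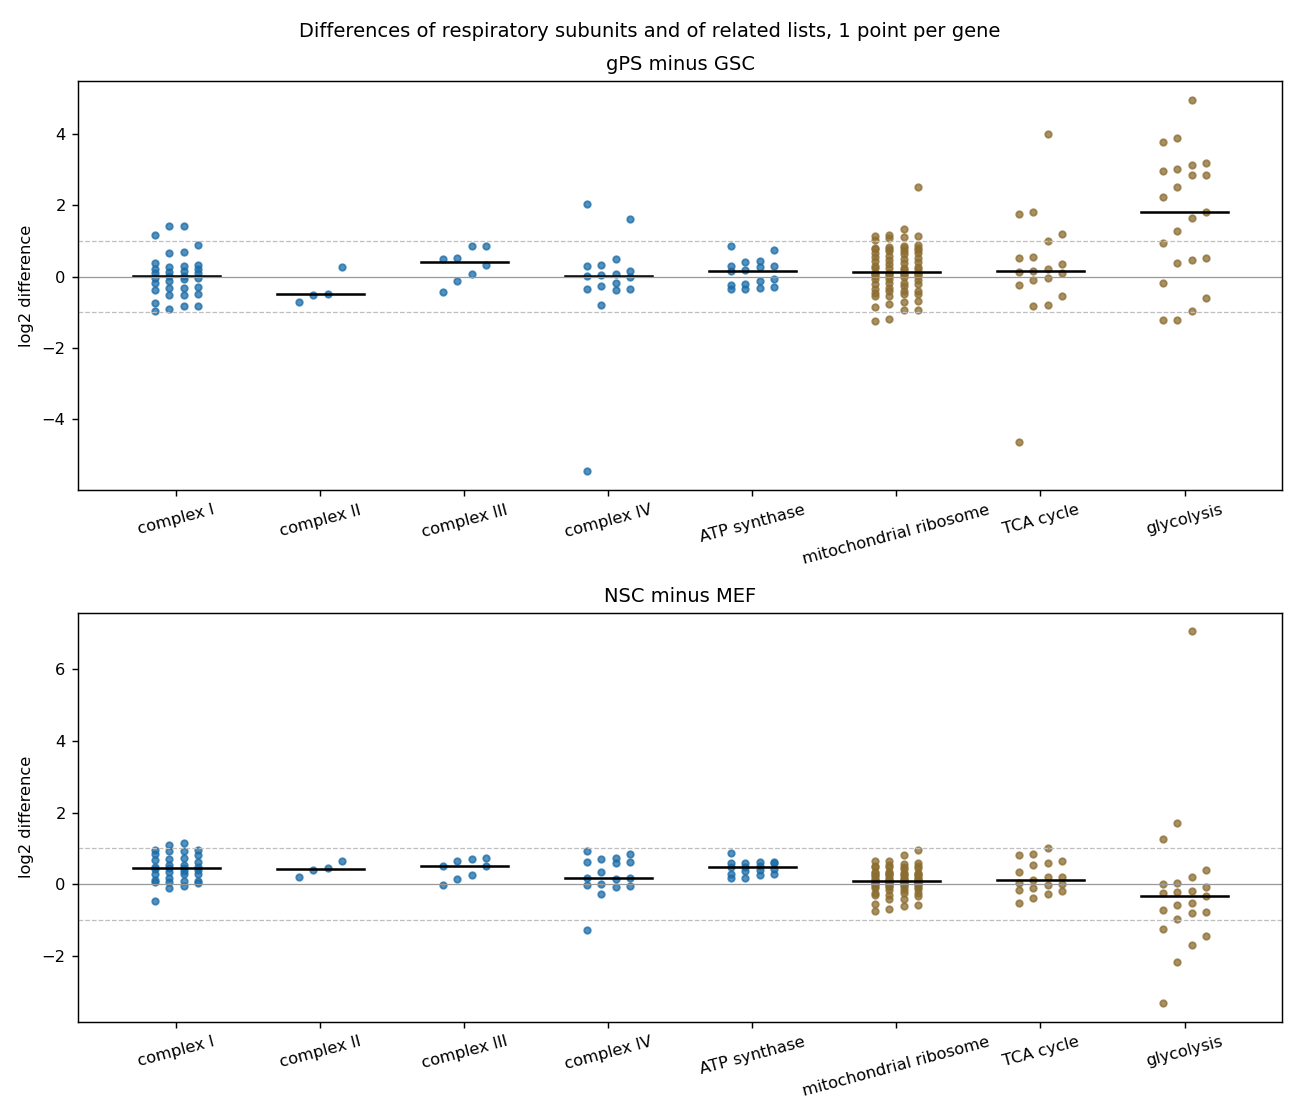
Log2 differences of gPS minus GSC (top) and NSC minus MEF (bottom), 1 point per gene, by complex (blue) and for 3 related lists (brown); black bars are medians and dashed lines mark 2-fold. In the top panel the medians of the complexes lie between -0.49 and 0.40, with Cox7b2 at -5.45, and that of glycolysis at 1.80. In the bottom panel 72 of 81 respiratory points lie above 0.

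Cox6b2, Cox7a1 and Ndufa4l2 were called lower in both somatic groups than in ESC, in comparisons that share the ESC arrays. In NSC 35 members were higher and 8 lower past the test, or 53.1% beside 47.4% of all genes and 63.3% of the genes above 7 in every group, with 1 called higher and 3 lower beside 21.4% of all genes (11.4% higher, 10.0% lower). Ndufc2, an accessory subunit, rose by 1.07 ± 0.13, and Cox6b2, Cox7a1 and Ndufa4l2 were lower, at -4.07, -2.45 and -1.73. In MEF 6 members were higher and 30 lower past the test, or 44.4% beside 48.6% of all genes and 66.5% of the genes above 7 in every group, with 1 called higher and 5 lower beside 23.4% of all genes. With the arrays centred on bright genes, 10 were higher and 23 lower. Ndufs5 was higher in MEF by 1.12 ± 0.12, and Cox6b2, Cox7a1, Ndufa4l2, Cox7c and Cox7b2 were lower, at -2.81, -2.42, -1.64, -1.29 and -1.11. For Cox7b2 both groups lay below the median of all values. Cox4i1 at -0.91 ± 0.09 was the largest difference of a common complex IV subunit that stayed short of 2-fold.

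Other genes of the same pathways were described from lists chosen with earlier results known. Their counts in gPS against GSC stand beside 9.10% of all genes called higher and 10.9% called lower. In the glycolysis list, gPS against GSC, 14 of 23 measured genes were called higher and 2 lower, with a median of 1.80 beside 0.02 over all genes. Pfkl, a phosphofructokinase, was 10.37 ± 0.58 against 5.41 ± 0.21, Pgk1, a phosphoglycerate kinase, 13.05 ± 0.15 against 9.15 ± 0.10, and Pfkp, another phosphofructokinase, 9.76 ± 0.14 against 5.99 ± 0.21 (SD). Hk1, a hexokinase, did not pass the test, at -0.17 ± 0.32 (SE). In the TCA cycle list 5 of 19 were called higher and 1 lower, with a median of 0.16, and Dlst did not pass the test, at -0.03 ± 0.12 (SE). Its 2 forms of the pyruvate dehydrogenase E1 alpha subunit differed in opposite directions, as the testis form Pdha2 was 8.15 ± 0.09 in GSC and 3.52 ± 0.12 in gPS and the common form Pdha1 9.59 ± 0.13 and 11.40 ± 0.29. Idh2, a mitochondrial isocitrate dehydrogenase, was 5.67 ± 0.76 in GSC and 9.68 ± 0.38 in gPS.

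Electron carriers feed the chain and membrane carriers exchange its products. Of 7 electron carriers and dehydrogenases 3 were called higher and 1 lower in gPS against GSC. Gpd2, which passes electrons from glycerol phosphate to ubiquinone, was 5.04 ± 0.18 in GSC and 9.80 ± 0.20 in gPS. Dhodh, which does so from pyrimidine synthesis, was 6.95 ± 0.28 and 8.97 ± 0.22. Cyct, the testis form of cytochrome c, was 9.62 ± 0.18 in GSC, 6.60 ± 0.43 in gPS and 4.41 ± 0.14 in ESC, while the common form Cycs differed by 0.03 ± 0.10 (SE) between gPS and GSC and did not pass the test. Among 9 inner and outer membrane carriers 3 were called higher and 1 lower. Vdac1, an outer membrane channel, was 9.24 ± 0.08 in GSC and 12.34 ± 0.08 in gPS, and Ucp1 did not pass the test, at 0.10 ± 0.13 (SE). Slc25a31, the germ cell ADP/ATP carrier, was 11.75 ± 0.05 in GSC and 3.65 ± 0.27 in gPS, and Slc25a5, a common one, 10.75 ± 0.20 and 12.84 ± 0.06 (SD).

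Assembly factors, which build the complexes, and the mitochondrial ribosome had members in both directions. In gPS against GSC 5 of 46 assembly factors were called higher and 2 lower, with a median of 0.07; these shares are near or below those of all genes. Ndufaf3, a complex I assembly factor, rose by 1.80 ± 0.11, Pet100, for complex IV, by 1.66 ± 0.09 and Uqcc1, for complex III, by 1.38 ± 0.12 (SE), while Acad9 did not pass the test, at 0.01 ± 0.11. Of 76 mitochondrial ribosomal proteins 8 were called higher, near the share of all genes, and 2 lower. Mrps28 was at 2.53 ± 0.10, Mrpl19 at 1.32 ± 0.10 and Mrps6 at -1.25 ± 0.14, and Mrpl47 did not pass, at 0.01 ± 0.11. In NSC against MEF, 21 of these 76 were higher and 7 lower past the test, with a median of 0.10, beside the median of 0.45 for the respiratory subunits. Of 18 biogenesis genes 4 were higher and 1 lower in NSC than in MEF past the test, beside 20.8% and 18.3% of all genes. The called one was Ppargc1a, a coactivator of mitochondrial genes, at 6.63 ± 0.10 in NSC and 3.28 ± 0.07 in MEF (SD). In gPS against GSC 3 of the 18 were called higher and 2 lower. Esrrb, a nuclear receptor of pluripotent cells, rose by 1.41 ± 0.14 and Gabpa, a subunit of the ETS factor GABP, by 1.38 ± 0.11, while Polg2, a subunit of the mitochondrial DNA polymerase, was lower at -1.31 ± 0.13 (SE). Esrrg did not pass the test, at 0.11 ± 0.12.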

How the data were processed

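Each of 20 RNA samples from mouse cells was measured on 1 Affymetrix array. The deposited values are log2 intensities per probe set, made by the authors with RMA per the submitters' processing notes. The method gives all arrays processed together the same distribution of probe values, which partly removes overall shifts between samples. Its version, and whether all arrays were processed together, are not given in the sources used here. Of 45101 probe sets, 64 were controls, 34945 had 1 gene symbol, 932 several and 9160 none. For 34741 of those with 1 symbol, the symbol was taken from a RefSeq table by gene identifier, whether or not it changed. The probe set with the highest mean stood for a gene, which gave 18193 genes. Of the 81 members, 48 had several probe sets and 44 were read on a set whose suffix marks shared or less specific probes.

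Group means of all 20 arrays were fitted with limma 3.58.1 in R 4.3.3 (lmFit, eBayes), without covariates and with no filter on low values. p-values were adjusted over the whole table (Benjamini-Hochberg), and calls needed 0.05 and at least 2-fold. Paralogs were compared by exact permutation (scipy 1.17.1). Every array value is printed for members called in gPS against GSC and for the 12 of the largest spread, with group means for paralogs and for Ndufb7 in ESC. For gPS against GSC, each related list is represented by up to 3 called genes of the largest difference and 1 not called. The members, lists and rules were chosen with earlier results of these data known. The fit was tested on simulated data. Of 12 further subunits outside the symbol rule, 10, most of them mitochondrially encoded, were not analysed here. Precision is limited by the number of arrays. Alternatives were other scalings, probe set rules, thresholds, fits and left-out arrays. Figures used Python 3.11.15 and matplotlib 3.10.9.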

Additional observations from a re-analysis of the deposited data

Results flagged for a closer look

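Among the 5 gPS arrays, 4 of 81 members had 1 array that stood apart from the other 4 by Dixon's criterion. Chance flags about 1 in 20 groups. Ndufa1 was 11.70 in gPS replicate 5 against 11.30 to 11.38 in the others. Uqcrc2, a core subunit of complex III, was 10.88 in the same replicate against 11.17 to 11.27. In gPS replicate 1, Ndufs1, the largest subunit of complex I, was 10.81 against 10.36 to 10.46, and Cox7a2l was 10.78 against 11.19 to 11.26. Each gap was under 0.5 log2 units, and none of these genes was called in gPS against GSC or against ESC.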

How the results depend on the processing

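Of 35 called differences, 28 were called under every alternative run and 7 were lost under at least one, among 1078 values of which 19 lost the call and 0 reversed. The 5 of them in gPS or GSC against ESC, ESC_like against ESC and gPS against ESC_like are given in the report. The other 2 were Ndufc2 in NSC against ESC, at 0.84 with the mean of its probe sets, and Cox7c in MEF against ESC, at -0.95 without suffix probe sets. With no limit on the size, 51 members passed in gPS against GSC, 10 in gPS against ESC, 55 in GSC against ESC, 18 in ESC_like against ESC, 24 in gPS against ESC_like, 43 in NSC against ESC, 36 in MEF against ESC and 55 in NSC against MEF. With a limit of 1.5-fold the counts were 20, 3, 20, 6, 5, 22, 16 and 29 in that order. In gPS against ESC_like 2 members were called with the mean of the probe sets and 2 without suffix probe sets, each time 1 higher and 1 lower. In that comparison Uqcr10 stood at -0.12 on the probe set used and at -2.73 on its probe set without a suffix. In NSC against MEF 8 members were called after centring on all genes. In gPS against ESC at any size, 16 passed without dim genes, 18 with a variance trend and robust fit, 5 with only the 2 groups and 17 without gPS replicates 1 and 2. In gPS against ESC_like 14 passed with only the 2 groups. With the second-brightest probe set of Sdha, chosen after seeing the data, the complex II median of gPS minus GSC moved from -0.49 to -0.10. The cause of these shifts was not tested. Leaving out 1 array at a time gave 1 to 2 calls in gPS against ESC, 0 to 1 in gPS against ESC_like and 6 to 14 members at any size in gPS against ESC. Without GSC replicate 1, the array with the largest Actb difference, 48 members passed at any size in gPS against GSC and 7 were called. In GSC against ESC 48 passed without it and 10 were called. The groups share replicate numbers, but same-numbered arrays did not deviate together (correlations from -0.170 to 0.269). With the replicate number as a block, 0 members were called in gPS against ESC_like, where Ndufa4l2 was at 0.76, and the counts called were 7, 3, 10, 3, 4, 6 and 3 in the other comparisons in the order above. Precision is limited by the few arrays per group, and 9 members were not above 7 in every group.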
